A study of Homo sapiens with 15 samples.

Results

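OCI-AML5, an established human acute myeloid leukaemia line, was transduced with an shRNA against RUNX1 or with a non-targeting shRNA, and total RNA was sequenced 72 h later. The comparison takes in 6 of the 15 libraries of the series, 3 with RUNX1 shRNA and 3 with non-targeting shRNA, which were chosen by their treatment labels, and it covers every gene of their expression table. In all groups the cells grew in Alpha MEM medium with serum and GM-CSF, a cytokine that supports growth and survival of myeloid cells. The other 9 libraries came from cells left untreated or given 1000 nM ARV-825 or OTX015 for 4 h, and they are used here only for values set beside the knockdown. In their library titles the 3 RUNX1 shRNA samples carry the name Runx3, whereas the treatment label and the protocol name RUNX1, so the treatment label was followed and both genes are shown first. The sources used here do not give the hairpin sequence, the number of hairpins or the vector. Effects of the shRNA on other transcripts were not tested, and in this design they cannot be told apart from effects of lower RUNX1. The series title speaks of leukaemia cells with mutant RUNX1, and a value per gene adds up the transcripts of all alleles.

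RUNX1 is the DNA-binding subunit of core binding factor, a transcription factor that forms when it pairs with CBFB, a partner that does not touch DNA itself. Its Runt domain recognises the letters TGTGGT or TGCGGT, and depending on the cofactors it recruits, the complex activates or represses genes of blood stem cells, granulocytes, monocytes, lymphocytes and platelets. RUNX1 is needed for the first blood stem cells of the embryo and is often mutated or fused in acute myeloid leukaemia. RUNX2 and RUNX3 share the Runt domain and the CBFB partner.

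RUNX1 was lower in the libraries labelled RUNX1 shRNA, and the mean of RUNX3 was not. RUNX1 stood at 69.8, 72.2 and 69.8 FPKM in non-targeting replicates 1, 2 and 3 and at 37.2, 42.9 and 36 FPKM in RUNX1 shRNA replicates 1, 2 and 3. FPKM is the abundance of a transcript after division by its length and by library size. The 2 groups did not overlap, and the mean fell from 70.6 ± 1.4 to 38.7 ± 3.65 FPKM (SD, n = 3), which left 54.8% of the non-targeting level. On the log2(FPKM + 1) scale used throughout, RUNX1 fell by 0.85 (SE 0.0589, 95% interval -0.99 to -0.72, adjusted p = 3.71e-05 by limma with Benjamini-Hochberg adjustment over all tested genes). RUNX3 was at 27.5, 28.5 and 25 FPKM without and 28, 27.9 and 29.3 FPKM with the RUNX1 shRNA, and these ranges overlapped (log2 change 0.07, 95% interval -0.047 to 0.186, adjusted p = 0.341). RUNX2 was lower in level than RUNX3, at 7.06, 6.51 and 7.54 FPKM against 7.44, 8.71 and 8.24 FPKM (0.18, interval 0.013 to 0.354, adjusted p = 0.102). CBFB, the partner of all 3 RUNX proteins, rose from 61.2 ± 3.41 to 70.2 ± 1.93 FPKM (0.20 ± 0.0432 SE, adjusted p = 0.0115).

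**Figure D1:**
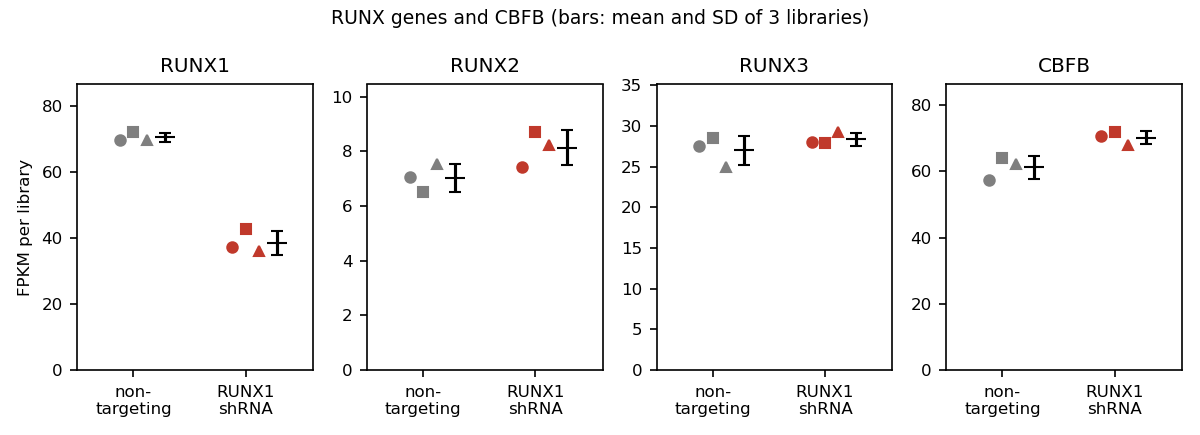
FPKM of RUNX1, RUNX2, RUNX3 and CBFB in each of the 6 libraries, with 1 point per library (circle, square and triangle for replicates 1, 2 and 3) and the mean ± SD of the 3 libraries beside the points. RUNX1 points with RUNX1 shRNA lie at 36.0 to 42.9 FPKM, below all non-targeting points at 69.8 to 72.2 FPKM, whereas the RUNX3 points of the groups overlap.

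Of 10925 genes tested (mean of at least 1 FPKM), 2988 changed at an adjusted p under 0.05, or 27.4%, and they divided almost evenly into 1476 that rose (13.5%) and 1512 that fell (13.8%). Changes were small: the median absolute log2 change was 0.26 among called genes and 0.11 among all tested genes, and 50 genes (0.458%) rose and 18 (0.165%) fell by at least 2-fold. The 3 libraries of one group lay entirely above or below those of the other in 44.1% of tested genes and in 99.3% of called genes. The median log2 change of all tested genes was -0.01. Without any of the 6 libraries in turn, 1997 to 2840 genes were called, and the number that fell was 978 without non-targeting replicate 2 and 966 without non-targeting replicate 3. The gene lists below are read against the shares of 13.5% that rose and 13.8% that fell. Where any of the 13 alternative settings ended the call of a gene taken by the naming rule, their number follows as "ended by".

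The largest falls were in genes of varied function. They were taken from called genes whose groups did not overlap, a choice that favours tight replicates. VIM, the intermediate filament vimentin, was at 164, 165 and 164 FPKM with non-targeting shRNA and 65.3, 64.3 and 65.7 FPKM with RUNX1 shRNA. Its groups stood far apart, with a log2 change of -1.32 ± 0.0238 (adjusted p = 4.22e-08). LYPLA1, which removes palmitate from proteins, was at 86.7, 84 and 89.1 FPKM against 36.6, 32.8 and 32.2 FPKM (-1.33, adjusted p = 1.43e-06). EIF2S2, the beta subunit of the translation initiation factor eIF2, went from 72.4 ± 1.19 to 30.8 ± 0.545 FPKM (-1.20). OSTC, a subunit of the oligosaccharyltransferase complex, went from 57.8 ± 0.776 to 24.4 ± 0.964 FPKM (-1.21), and CMAS, which activates sialic acid, from 20.7 ± 1.24 to 8.0 ± 1.12 FPKM (-1.28). All of these kept between 38.6% and 42.6% of their non-targeting mean. The other falls among the 12 largest were STARD3NL (-1.29), the granule protease CTSG (-1.22), HSH2D (-1.14), the molybdopterin synthase gene MOCS2 (-1.14), BZRAP1 (-1.13), TTC27 (-1.13) and RHOU, an atypical small GTPase (-1.09). Among the abundant genes that fell at least 2-fold were ATP5C1, the gamma subunit of the mitochondrial ATP synthase, at 154 ± 0.282 against 75.8 ± 3.92 FPKM, and PPP1R27 at 109.5 ± 5.6 against 51.4 ± 2.97 FPKM. Just short of 2-fold lay 2 abundant genes chosen after their values were seen, GNB1, a G protein beta subunit (-1.0), and TMSB10, an actin-binding thymosin (-0.86, from 594 ± 5.35 to 328 ± 2.76 FPKM).

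**Figure D2:**
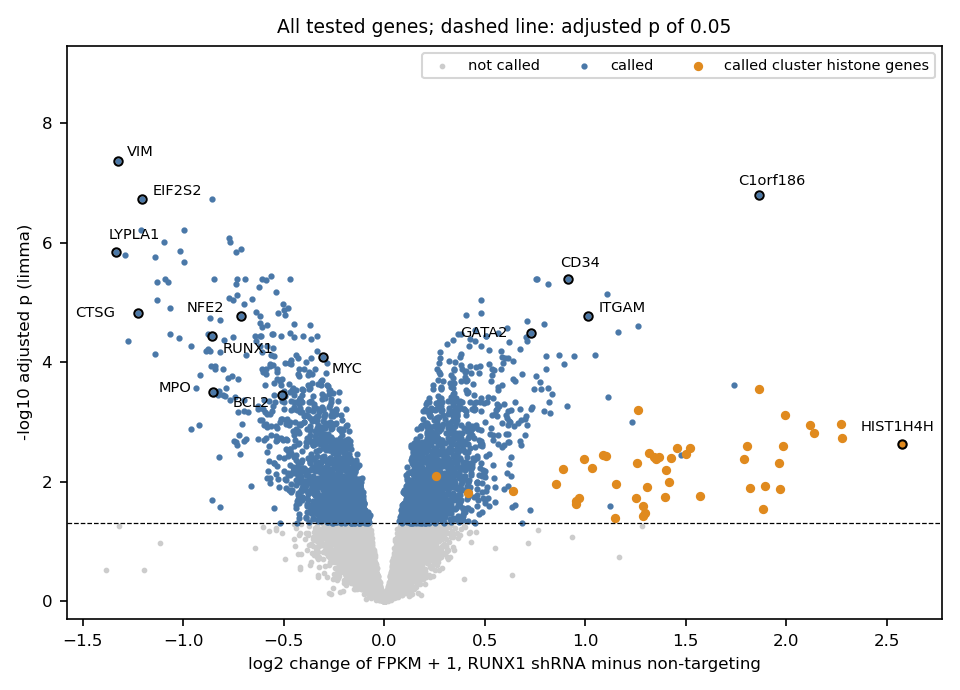
Each of the 10925 tested genes by its log2 change of FPKM + 1 (horizontal axis, RUNX1 shRNA minus non-targeting) and the -log10 of its adjusted p from limma (vertical axis), with the threshold of 0.05 dashed. Called cluster histone genes (orange) reach the largest rises with modest p-values, while VIM at -1.32 and C1orf186 at 1.86 combine a large change with a small p.

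Promoter windows with the letters that RUNX proteins recognise are shown for genes at the centre of these results. They were read from RefSeq sequences of GRCh38.p14, a later build than the hg19 listed for the expression values, and each shows the 250 bases before the transcription start, 5′ to 3′ along the transcript, with TGTGGT or its reverse complement ACCACA in capitals. VIM and RHOU are among the largest falls, PRSS57 encodes a serine protease of neutrophil granules (chosen after its values were seen), and GFI1 encodes a repressor counted among reported RUNX1 targets.
VIM (chr10:17227991-17228240, plus strand): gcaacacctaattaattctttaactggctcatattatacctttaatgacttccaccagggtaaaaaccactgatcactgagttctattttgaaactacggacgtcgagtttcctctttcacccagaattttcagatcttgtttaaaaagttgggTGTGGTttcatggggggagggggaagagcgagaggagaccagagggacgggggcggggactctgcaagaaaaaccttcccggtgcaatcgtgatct
RHOU (chr1:228735229-228735478, plus strand): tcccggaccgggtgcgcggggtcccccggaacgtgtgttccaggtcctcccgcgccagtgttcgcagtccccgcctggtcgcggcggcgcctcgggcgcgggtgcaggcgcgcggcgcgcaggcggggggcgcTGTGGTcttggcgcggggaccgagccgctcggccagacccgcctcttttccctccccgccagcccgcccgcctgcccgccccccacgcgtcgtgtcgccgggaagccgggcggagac
PRSS57 (chr19:695453-695702, minus strand): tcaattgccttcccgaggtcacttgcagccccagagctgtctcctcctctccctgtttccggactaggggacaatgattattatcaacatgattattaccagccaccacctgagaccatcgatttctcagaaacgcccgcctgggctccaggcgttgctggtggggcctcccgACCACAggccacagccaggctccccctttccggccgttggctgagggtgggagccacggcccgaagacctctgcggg
GFI1 (chr1:92486100-92486349, minus strand): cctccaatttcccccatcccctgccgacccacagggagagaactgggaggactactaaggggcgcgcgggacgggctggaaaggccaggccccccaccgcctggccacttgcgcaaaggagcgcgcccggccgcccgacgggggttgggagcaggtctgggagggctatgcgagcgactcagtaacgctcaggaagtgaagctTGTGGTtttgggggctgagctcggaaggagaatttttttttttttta
The match begins 96 bases before the start in VIM, 117 in RHOU, 77 in PRSS57 and 47 in GFI1. VIM, RHOU and PRSS57 fell and GFI1 rose. Such matches were about as frequent in all tested genes as in the changed ones. TGTGGT on either strand stood in 10.1% of 12422 windows of 300 bases (250 before to 50 after the start) of tested genes, in 10.3% of the windows of genes that rose and in 9.48% of those of genes that fell. For TGCGGT, which was searched separately, the shares were 9.81%, 8.84% and 9.77%. A window was listed for 8480 of the tested genes and for 10 of the 28 named for the size of their change or their abundance, of which 3 held a match. The listed windows of RUNX1, GATA2, CD34, CTSG, CFD, AZU1 and RNASE3 held neither set of letters, and MPO, LYZ, CST7, SRGN and NFE2 had no window in the table. A match of 6 letters is a description of the sequence, and binding of RUNX1 was not measured.

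Genes for the granule proteins of neutrophils fell together. Part of the listed proteins, such as MPO and cathepsin G, are made in promyelocytes and packed into the primary granules that kill microbes. Others, such as LTF, belong to secondary granules. Of 22 listed genes 10 were tested, of which 9 fell and 1 rose, with a median log2 change of -0.60 (all tested genes: 13.8% fell, 13.5% rose, median -0.01). CTSG, the serine protease cathepsin G, was at 12.4, 11.1 and 12.2 FPKM with non-targeting and 4.94, 4.42 and 4.21 FPKM with RUNX1 shRNA, with no overlap (-1.22 ± 0.0702, adjusted p = 1.49e-05). MPO, the peroxidase that makes hypochlorous acid, was at 2.33, 2.35 and 2.63 against 1.06, 0.79 and 0.854 FPKM (-0.85, adjusted p = 0.000313). CST7, an inhibitor of lysosomal cysteine proteases, was at 14.9, 14.5 and 17.6 against 8.19, 7.05 and 8.23 FPKM (-0.92, adjusted p = 0.000167). Each of the 3 kept between 37.0% and 49.9% of its non-targeting mean. CFD, complement factor D, fell from 19.1 ± 2.11 to 10.7 ± 0.273 FPKM (-0.78). SRGN, the proteoglycan core that holds granule contents, was the most abundant of the list and fell from 843 ± 12.9 to 549 ± 34.4 FPKM (-0.62), and LYZ, lysozyme, from 542 ± 9.81 to 366 ± 4.46 FPKM (-0.56). The eosinophil-type ribonucleases RNASE3 (-0.58) and RNASE2 (-0.12) and azurocidin, AZU1 (-0.47), fell as well, RNASE2 by little at 130.2 ± 3.74 against 119.7 ± 3.22 FPKM. The exception was CSF3R, the G-CSF receptor, which is a surface protein and not a granule protein and rose from 54.7 ± 0.789 to 60.4 ± 3.05 FPKM (0.14, ended by 7, adjusted p = 0.0313).

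The other 12 listed granule genes were below the level needed for a test. ELANE, neutrophil elastase, averaged 0.353 FPKM with non-targeting and 0.0226 FPKM with RUNX1 shRNA, and PRTN3, proteinase 3, 0.950 and 0.388 FPKM. The secondary granule genes LTF, CAMP and MMP8 reached at most 0.0181, 0.0386 and 0.0162 FPKM in a library, and DEFA3, DEFA4 and LCN2 were listed at 0 in all 6. With no filter on low values 11 of 19 fell and none rose, where 7.67% of all 16527 genes fell and 7.18% rose. Without RUNX1 shRNA replicate 2, 8 of 10 fell and none rose. The list itself was chosen with earlier results of these data known, so its count is a description and no independent support. The next 3 genes were chosen after their values were seen and add no support either. MS4A3, a marker of granulocyte and monocyte progenitors, fell from 21.5 ± 0.74 to 9.55 ± 0.374 FPKM (-1.09, adjusted p = 3.98e-06). PRSS57, whose promoter is printed above, fell from 58.2 ± 2.42 to 31.9 ± 0.803 FPKM (-0.85), and the annexin ANXA3 from 4.25 ± 0.102 to 1.94 ± 0.172 FPKM (-0.84). In bulk RNA, fewer cells of a type and less RNA per cell cannot be told apart.

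**Figure D3:**
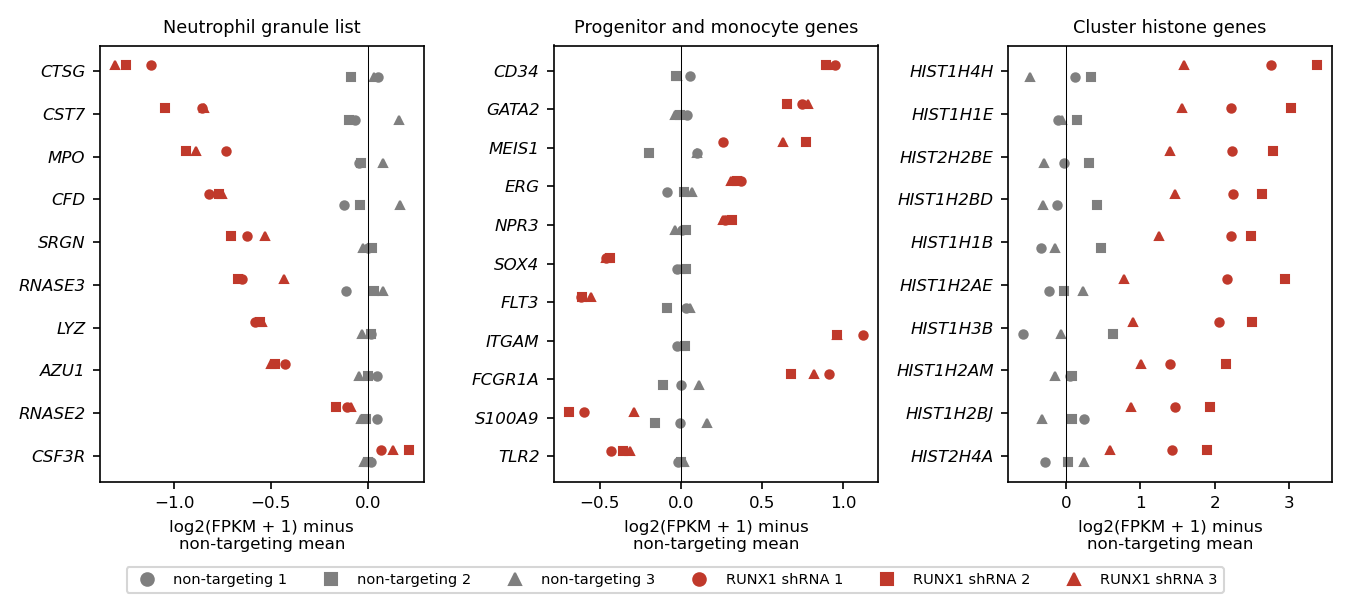
Deviation of log2(FPKM + 1) from the non-targeting mean in each library for granule genes (left), progenitor and monocyte genes (middle) and cluster histone genes (right), with grey points for non-targeting and red points for RUNX1 shRNA and a shape for each replicate. The red points of CTSG, CST7 and MPO lie to the left of all grey points and those of CD34, GATA2 and ITGAM to the right, and in the histone panel replicate 2 (square) lies farthest right and replicate 3 (triangle) nearest to the grey points.

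Stem and progenitor genes divided. Of 21 listed, 11 were tested, 5 rose and 2 fell (median 0.13). CD34, the surface sialomucin used to identify progenitors, was at 16, 15 and 15 FPKM with non-targeting and 30.5, 29.3 and 29.6 FPKM with RUNX1 shRNA, a rise to 194% (0.91 ± 0.0411, adjusted p = 4.08e-06). GATA2, a zinc finger factor of stem cells and mast cells, was at 13.6, 13.2 and 12.9 against 22.9, 21.3 and 23.5 FPKM (0.73, adjusted p = 3.24e-05). The libraries of CD34 and GATA2 did not overlap, and replicates differed by little. ERG, an ETS factor of stem cells, rose from 16.9 ± 0.954 to 21.7 ± 0.496 FPKM (0.34), and the natriuretic peptide receptor NPR3 from 14.8 ± 0.375 to 18.2 ± 0.422 FPKM (0.28). MEIS1, a cofactor of HOX proteins, was low at 1.7, 1.2 and 1.7 against 2.02, 3.3 and 2.89 FPKM (0.55, adjusted p = 0.022), and 4 of 13 alternative settings ended its call. In the other direction FLT3, a receptor kinase of progenitors, fell from 10.7 ± 0.592 to 6.74 ± 0.182 FPKM (-0.59, adjusted p = 0.000243), and SOX4, a factor expressed in immature cells, from 12.6 ± 0.286 to 8.9 ± 0.0999 FPKM (-0.45). KIT reached at most 0.375 FPKM in a library, and PROM1, MECOM and HLF at most 0.0577, 0.0310 and 0.0282 FPKM.

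Among transcription factors of blood formation, 25 of 35 listed were tested, and 9 rose and 8 fell (median 0.04). NFE2, which drives platelet and erythroid genes, had the largest fall, from 32.7, 32.4 and 34.8 FPKM to 19.1, 20.3 and 20.2 FPKM (-0.71, adjusted p = 1.71e-05). Of the core myeloid factors SPI1 (PU.1) was at 158, 162 and 158 against 136, 147 and 146 FPKM, a fall to 89.6% (-0.16, adjusted p = 0.00985, ended by 1), and CEBPA, which directs granulocyte formation, fell from 43.3 ± 1.96 to 38.5 ± 0.684 FPKM (-0.16, adjusted p = 0.0155, ended by 2). IRF8, a monocyte factor, fell from 83.7 ± 2.83 to 67.6 ± 2.22 FPKM (-0.31), CEBPD from 53.2 ± 2.76 to 41.5 ± 0.691 FPKM (-0.35) and BCL11A from 30.7 ± 0.609 to 23.6 ± 2.34 FPKM (-0.37). IKZF2 changed by -0.39 (adjusted p = 0.0389, ended by 7). Besides GATA2, MEIS1 and ERG, the rises were in ETV6 (0.34, from 44.5 ± 0.56 to 56.8 ± 1.92 FPKM), ELF1 (0.28), LYL1 (0.17), LMO2 (0.17), HHEX (0.10) and GFI1. GFI1, the repressor whose promoter is printed above, stood at 73.5, 72.6 and 73.1 FPKM against 87.1, 88.1 and 84 FPKM (0.24, adjusted p = 0.000601). MYB, which sustains immature cells, was at 173, 170.3 and 169.7 against 163, 166 and 157 FPKM. All MYB values with RUNX1 shRNA were the lower ones, yet the change of -0.08 did not pass the threshold (adjusted p = 0.0707).

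The list of reported RUNX1 targets had 19 tested members of 30, with 5 that rose and 9 that fell (median -0.12). RUNX1 itself is one of the 9. The falls were those of MPO, NFE2, BCL2, CCND3, IRF8, ITGAL, SPI1 and CEBPA, and the rises those of CD34, MEIS1, GFI1, CDKN1A and PIM1, a kinase gene that went from 63.1 ± 0.858 to 70 ± 0.75 FPKM (0.15). CSF1R, the receptor for M-CSF, was at 49.3 ± 1.52 against 53.2 ± 2.2 FPKM (0.11, adjusted p = 0.0733). Of the listed corepressors and cofactors 14 were tested, and 3 rose and 1 fell: the acetyltransferase gene CREBBP (0.42), the corepressor NCOR1 (0.21) and the deacetylase HDAC3 (0.11, ended by 5) rose, and the Groucho corepressor TLE4 (-0.14, ended by 8) fell. No cofactor fell when any library except RUNX1 shRNA replicate 2 was left out, or with no filter on low values.

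Monocyte and macrophage genes moved in both directions, with 4 risen and 7 fallen of 20 tested (31 listed, median -0.01), or 4 fallen without non-targeting replicate 1 or 3. With the replicate block 6 rose and 5 fell, and without RUNX1 shRNA replicate 2, 6 rose and 7 fell. ITGAM, the integrin alpha chain CD11b, was at 6.36, 6.6 and 6.49 FPKM with non-targeting and 15.3, 13.6 and 13.6 FPKM with RUNX1 shRNA (1.02, adjusted p = 1.68e-05). FCGR1A, the high-affinity IgG receptor, was at 28.9, 26.7 and 31.2 against 55.3, 46.8 and 51.7 FPKM (0.80, adjusted p = 0.000132). For both genes every RUNX1 shRNA library was above every non-targeting library. The lysosomal protease gene CTSS (0.25, ended by 1) and CD68 (0.16) rose by less. The falls, besides LYZ, were in the calcium-binding proteins S100A9 (-0.52, ended by 1) and S100A8 (-0.30, ended by 4), TLR2 (-0.37), FCGR3A (-0.35, ended by 6), MS4A6A (-0.22) and CCR2 (-0.11). CD14 reached at most 0.399 FPKM and was not tested. CYBB, the catalytic subunit of the phagocyte oxidase, was chosen after its values were seen and rose from 4.14, 3.88 and 4.07 FPKM to 9.98, 9.78 and 9.72 FPKM (1.11, adjusted p = 7.26e-06).

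Surface and antigen presentation genes gave further counts. Of 13 tested MHC class II genes (16 listed) 8 rose and none fell (median 0.23), or 5 of 16 rose and 1 fell with no filter on low values and 5 of 13 rose without non-targeting replicate 2 or 3. HLA-DRB1 rose from 44.7 ± 1.62 to 63.8 ± 1.06 FPKM (0.50, adjusted p = 3.62e-05), HLA-DPB1 from 47.5 ± 1.13 to 63.9 ± 1.25 FPKM (0.42) and HLA-DRA from 278 ± 2.61 to 345 ± 4.41 FPKM (0.31). Their shared transactivator CIITA changed by 0.25 and also passed. Reads of HLA genes can be shared between near-identical copies, so single HLA values are uncertain. In MHC class I and antigen processing 5 of 17 rose, among them HLA-E (0.34) and the peptide-loading protein TAPBP (0.23), and 2 fell, HLA-F (-0.60) and the chaperone calreticulin CALR (-0.49, from 1125 ± 15.6 to 799 ± 25.2 FPKM). Of 22 tested integrin and adhesion genes (25 listed) 6 rose and 4 fell, or 3 rose without non-targeting replicate 2 or 3. SIGLEC5, a sialic acid receptor of myeloid cells, rose from 7.72 ± 0.205 to 12.7 ± 0.918 FPKM (0.65), and ICAM2 (-0.48), the P-selectin ligand SELPLG (-0.36), ITGA5 (-0.29) and ITGAL (-0.26) fell. Chemokine and lipid mediator receptors had 1 risen and 6 fallen of 12 tested (22 listed, median -0.13). GPR183, an oxysterol receptor, was at 4.14, 4.36 and 4.01 against 1.83, 1.79 and 2.02 FPKM (-0.84, adjusted p = 0.000116), and CXCR4, which retains cells in the marrow, at 3.86, 3.59 and 4.15 against 2.25, 2.17 and 2.23 FPKM (-0.60, adjusted p = 0.000695). PTAFR, the receptor for platelet-activating factor, was the member that rose (0.27).

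Survival genes rose and fell. BCL2, which blocks mitochondrial apoptosis, was at 28.1, 29.9 and 31 FPKM with non-targeting and 19.2, 21.5 and 21.1 FPKM with RUNX1 shRNA, a fall to 69.4% (-0.51 ± 0.0534, adjusted p = 0.000349). Its relatives BCL2L1 (BCL-xL) and MCL1 rose, from 17.2 ± 0.419 to 20.9 ± 0.323 FPKM (0.27) and from 59.3 ± 1.81 to 65.6 ± 0.622 FPKM (0.14). With CFLAR (ended by 8), that made 3 risen and 1 fallen of 7 tested anti-apoptotic genes, or 2 risen and 2 fallen without RUNX1 shRNA replicate 2. Of 18 pro-apoptotic genes 2 rose, the initiator caspase CASP8 (0.46, ended by 1) and the TRAIL receptor TNFRSF10B (0.29), and 4 fell, and without RUNX1 shRNA replicate 2, 4 rose. CYCS, cytochrome c, had the largest change of these at 179, 177 and 174 against 108, 103 and 114 FPKM (-0.70, adjusted p = 1.08e-05), followed by TNFRSF10A (-0.38), TNFSF10 (-0.34) and BCL2L11 (-0.21, ended by 7).

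The D cyclins moved apart. CCND2 was at 31.4, 30.5 and 31 FPKM with non-targeting and 58.7, 70.9 and 49.6 FPKM with RUNX1 shRNA (0.91, adjusted p = 0.000546), whereas CCND3 was at 24.9, 24.4 and 23.7 against 17.4, 16.4 and 17.2 FPKM (-0.49, adjusted p = 0.000102). Neither pair of groups overlapped, and the spread of CCND2 with RUNX1 shRNA was wide (59.7 ± 10.7 FPKM). The kinase CDK6 that D cyclins activate was at 43, 43.8 and 42.8 against 44.8, 49.6 and 39.5 FPKM, with overlapping groups (0.04, 95% interval -0.118 to 0.200, adjusted p = 0.70). Its sign turned with the transcript length trend removed or without RUNX1 shRNA replicate 2. The inhibitors CDKN1A (p21), at 87.9, 87.2 and 87.5 against 101, 101 and 102 FPKM (0.21, adjusted p = 0.000493), and CDKN1B (p27), from 13 ± 1.4 to 16.8 ± 0.432 FPKM (0.35), rose. Of 28 tested p53 targets 9 rose and 1 fell (median 0.12), led by BTG2 (0.57, from 12.3 ± 0.383 to 18.8 ± 1.36 FPKM) and GADD45A (0.34), and MDM2 rose by 0.26. TRIAP1 fell (-0.18, ended by 3). Genes of DNA replication and the G1/S step had 8 fallen and none risen of 39 tested (median -0.06), all by little, as with CDC45 (-0.20) and MCM5 (-0.13, ended by 7). Of these 39, 4 fell without RUNX1 shRNA replicate 2, without any 1 non-targeting library, with the length trend removed or without the mean-variance trend, and 5 fell without RUNX1 shRNA replicate 1 or with no filter. G2/M genes had 7 risen and 4 fallen of 33, with UBE2C (0.29) and CDK1 (0.19) among the risen and CDC25C (-0.35) among the fallen. Of these 33, the share that fell lay near that of all tested genes (13.8%), and the share that rose lay above it (13.5%). Without non-targeting replicate 2 or 3 the counts were 4 and 2, with 2 fallen also when the length trend was removed.

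MYC, a driver of growth and ribosome production, was at 258, 264 and 262 FPKM with non-targeting and 208, 211 and 216 FPKM with RUNX1 shRNA, a fall to 80.9% (-0.31 ± 0.0243, adjusted p = 8.12e-05). Its dimer partner MAX fell from 50.7 ± 3.84 to 40 ± 4.01 FPKM (-0.34, ended by 1). The genes that MYC is associated with in the nucleolus and in biosynthesis did not move one way: 6 of 40 rose and 8 fell (median -0.02), with 3 risen without non-targeting replicate 1 or 3 or RUNX1 shRNA replicate 3, and 5 fallen without non-targeting replicate 3. CAD (0.23), an enzyme of pyrimidine synthesis, and ODC1 (0.19), of polyamine synthesis, rose, while PPAT (-0.42), of purine synthesis, and the ribosome assembly factor NOP16 (-0.16) fell. Of 44 ribosomal protein genes 2 rose, among them RPLP0 (0.10, ended by 6), and none fell. With the length trend removed 14 of these 44 rose, without RUNX1 shRNA replicate 2, 5 did, with median-ratio rescaling 4, without non-targeting replicate 1 or 2 or RUNX1 shRNA replicate 3 or with no filter 1, and without the mean-variance trend none.

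**Figure D4:**
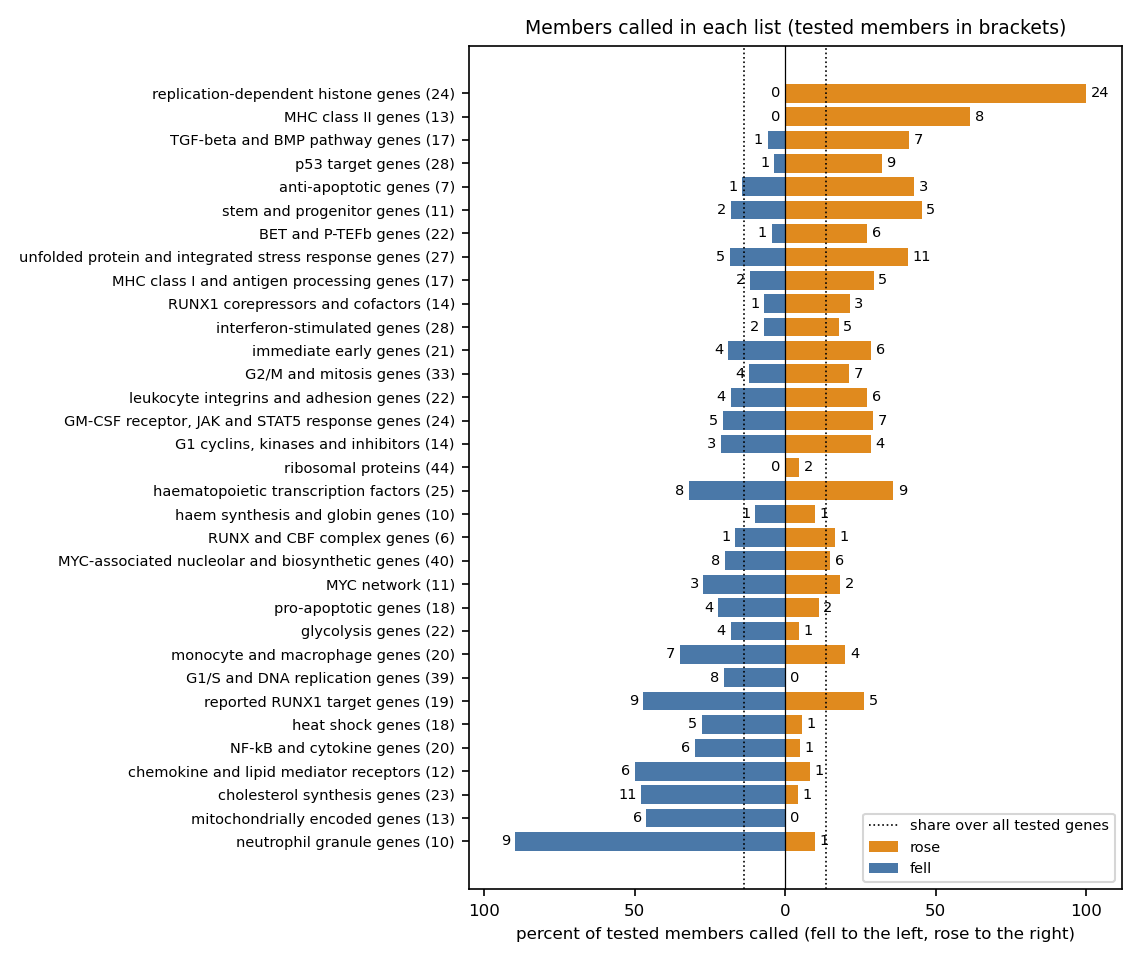
Percent of tested members that rose (orange, to the right) and fell (blue, to the left) in each gene list with at least 5 tested members, with the number called beside each bar and dotted lines at the share over all tested genes (13.5% rose, 13.8% fell). Neutrophil granule genes (9 of 10 fell) and replication-dependent histone genes (24 of 24 tested rose, many of which passed the filter through the RUNX1 shRNA group) stand at the ends.

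In cytokine signalling the receptor subunits for GM-CSF and IL-3 split. CSF2RA, the alpha chain for GM-CSF, fell from 2.58 ± 0.302 to 1.69 ± 0.178 FPKM (-0.41, ended by 1) and IL3RA from 6.8 ± 0.503 to 5.55 ± 0.158 FPKM (-0.25, ended by 4), while CSF2RB, the shared signalling chain, rose from 9.47 ± 0.212 to 11.1 ± 0.165 FPKM (0.20, ended by 2). IL2RA, the interleukin-2 receptor alpha chain, was low and fell from 1.46, 1.61 and 1.38 to 0.332, 0.632 and 0.64 FPKM (-0.70), and the signal transducers STAT3 (0.29) and STAT5B (0.18) rose. In all, 7 of 24 genes of this pathway rose and 5 fell, where 13.5% and 13.8% of all tested genes did. The number that fell was not stable: it was 0 without non-targeting replicate 2, 1 without non-targeting replicate 3, 3 without non-targeting replicate 1 or RUNX1 shRNA replicate 2 or 3, and 2 with no filter or with a mean of at least 5 FPKM. NF-kB and cytokine genes had 1 risen and 6 fallen of 20 (30 listed). The neutrophil chemokine CXCL8 fell from 8.59 ± 0.779 to 4.88 ± 1.04 FPKM (-0.72) and the superoxide dismutase SOD2 from 61.4 ± 0.258 to 44.2 ± 4.26 FPKM (-0.47), and CCL5 was the one that rose (0.58). Without RUNX1 shRNA replicate 2 or non-targeting replicate 1, 3 of these 20 fell, without non-targeting replicate 2 or 3, 2 did, and with no filter or with the replicate block, 3 did. TGF-beta and BMP pathway genes had 7 risen and 1 fallen of 17. Its receptor TGFBR1 was at 18, 17.4 and 19 against 30.2, 30.8 and 27.8 FPKM (0.68, adjusted p = 6.12e-05), the repressor of SMAD signalling SKIL rose from 2.45 ± 0.295 to 4.23 ± 0.278 FPKM (0.60), and SMAD5 fell (-0.42). Interferon-stimulated genes (5 risen, 2 fallen of 28) and immediate early genes (6 risen, 4 fallen of 21) held few large changes. GBP2 (0.46) had the largest rise of the first list and BTG2, given above, and FOS (0.35) those of the second, and HERC5 (-0.39) and ATF3 (-0.44) the largest fall of each.

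Of the metabolic lists, cholesterol synthesis genes had 11 fallen and 1 risen of 23 tested (median -0.13), or 7 fallen without non-targeting replicate 3. HMGCS1, which makes the precursor of mevalonate, was at 15, 15.1 and 15.4 against 9.35, 9.51 and 10.4 FPKM (-0.59, adjusted p = 0.000156), and DHCR7, the last enzyme of one branch of the pathway, fell from 27.5 ± 1.16 to 19.7 ± 0.823 FPKM (-0.46). INSIG1 (-0.33), MVK (-0.30) and SQLE (-0.27) fell too, while SREBF2, which encodes the factor that activates these genes, was called as risen (adjusted p = 0.0474, log2 change 0.17), a call that 7 of the 13 settings ended. SLC2A1, the glucose transporter GLUT1, was at 39.7, 41.8 and 41.8 against 22.9, 18.3 and 21 FPKM (-0.96, adjusted p = 5.44e-05). It had the lowest change of the 22 glycolysis genes, of which 4 fell, SLC2A1 included, and 1 rose. In the stress response list 11 of 27 rose and 5 fell. The risen ones included enzymes of amino acid and one-carbon supply: ASNS, asparagine synthetase, at 14.8, 15.2 and 16 against 25.9, 25.1 and 26.2 FPKM (0.71, adjusted p = 2.01e-05), PHGDH (0.42) and MTHFD2 (0.40), with ATF4 (0.24) and ATF5 (0.35). CALR, PDIA6 (-0.21) and PSAT1 (-0.16, ended by 3) were among the fallen. Heat shock genes had 5 fallen and 1 risen of 18, with CHORDC1 (-0.53) in front. Of 22 BET and P-TEFb genes, which encode readers of acetylated chromatin and the machinery of transcript elongation, 6 rose and 1, the kinase gene CDK7, fell (-0.26). Haem synthesis and globin genes had 1 risen (CPOX, 0.24) and 1 fallen (UROD, -0.13, ended by 9) of 10 tested. Of 3 tested mast cell, basophil and eosinophil genes GATA2 and SIGLEC6 (0.52, ended by 5) rose.

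The largest rises were in cluster histone genes, which supply the histones for newly copied DNA and whose messages mostly end without a poly(A) tail. Of the 70 such genes listed, 50 were tested, and 48 rose and none fell, 39 by at least 2-fold, and they made up 39 of the 50 genes that rose at least 2-fold in the whole table. Among genes with a non-targeting mean of at least 1 FPKM, which did not pass the filter through the RUNX1 shRNA group alone, 23 rose at least 2-fold, and 13 of these were of the family. HIST1H4H was at 1.9, 2.36 and 0.905 FPKM with non-targeting and 16.9, 26.5 and 7.0 FPKM with RUNX1 shRNA (2.58 ± 0.401, adjusted p = 0.00233). The linker histone gene HIST1H1E was at 1.67, 2.18 and 1.77 against 12.4, 22.3 and 7.46 FPKM (2.27, adjusted p = 0.00107), and HIST2H2BE at 3.89, 5.12 and 3.04 against 22.3, 33 and 12 FPKM (2.14, adjusted p = 0.00154). In these 3 genes the groups did not overlap, and RUNX1 shRNA replicate 2 was highest and replicate 3 lowest of its group. HIST2H2BF (2.27), HIST1H2BD (2.12), HIST1H4A (1.99), HIST1H1B (1.98), HIST1H2AE (1.97, ended by 1), HIST1H2BL (1.96), HIST1H2BM (1.89, ended by 1) and HIST1H2BO (1.88, ended by 7) complete the histone genes among the 12 largest rises.

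The histone result varied between libraries. Summed over the family, the level was 74.3, 99.9 and 81.3 FPKM in the non-targeting libraries and 323, 485 and 182 FPKM with RUNX1 shRNA. Replicate 2 of RUNX1 shRNA was the highest of all libraries in 49 of the 50 tested histone genes, and replicate 3 was the lowest of its group in 46. Without replicate 2, 33 of 37 tested histone genes rose and none fell. Many of the 50 reached a mean of 1 FPKM only through the RUNX1 shRNA group, which favours a rise among those tested. All 21 with a non-targeting mean of at least 1 FPKM rose, and with no filter on low values 33 of 66 rose and none fell (7.18% of all genes rose). Near-identical histone copies share reads, so single values are uncertain, and the sources used here do not say how messages without a poly(A) tail were captured. Beside the histone genes, the humanin-like MTRNR2L8, whose reads can stem from mitochondrial RNA, was at 66.2, 76.7 and 68.6 FPKM against 135, 276 and 98.9 FPKM, also highest in replicate 2 (1.12, ended by 5, adjusted p = 0.026).

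The other 10 genes that rose at least 2-fold had tighter replicates in part. They were set apart from the histone family by gene name alone, and RP1-34B20.21, which is among them, is not described further. C1orf186 (RHEX), a membrane protein described in erythroid progenitors, was at 13.9, 14.4 and 13.1 FPKM with non-targeting and 54, 51.4 and 53 FPKM with RUNX1 shRNA, an increase to 383% (1.86 ± 0.0426, adjusted p = 1.60e-07), and it was the one gene outside the histone family among the 12 largest rises. ITGAM, described above, was another, and the next were chosen after their values were seen. TFPI, an inhibitor of the coagulation cascade, rose from 1.11, 1.12 and 0.943 to 4.23, 3.9 and 3.7 FPKM (1.26), and CTTN, an actin-binding protein, from 1.84, 1.93 and 1.69 to 5.64, 4.9 and 5.41 FPKM (1.16). All 3 RUNX1 shRNA libraries of C1orf186, TFPI and CTTN were close to one another and far from the non-targeting ones. The adenosine receptor ADORA3 (1.11), the peptide transporter SLC15A3 (1.23), SPINK4 (1.05) and CYBB rose alike, and the zinc finger gene ZNF460 (1.74) was, like the histones, highest in replicate 2 at 7.59, 10.9 and 6.1 FPKM. Just under 2-fold were the kinase gene DAPK1 (0.87), the lymphocyte receptor LY9 (0.94) and ARHGAP6 (0.90). PTPRC, the leukocyte phosphatase CD45, rose from 111 ± 5.4 to 151 ± 6.35 FPKM (0.44).

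Features of whole libraries moved with the groups in part. The Pearson correlation of log2(FPKM + 1) over genes, which are not independent replicates, lay between 0.994 and 0.997 for libraries of one group and between 0.986 and 0.991 for libraries of different groups, and 10847 to 10927 genes reached 1 FPKM per library. The log2 change correlated with transcript length, taken from the longest protein-coding transcript in GENCODE 29, across 10819 genes (Spearman's rank correlation 0.244). The median length was 4482.5 bases among genes that rose, 2732 among those that fell and 3379 among all tested. Libraries of one group also differed by length. The deviation of a library from the rest of its group correlated with length at -0.053, 0.233 and -0.2 in RUNX1 shRNA replicates 1, 2 and 3. In non-targeting replicates 1, 2 and 3 it did so at 0.144, -0.088 and -0.061. With a length trend removed from each library, an alternative chosen after seeing the data, 2972 genes were called, and 84.2% of the called genes with a length were still called in the same direction. The summed FPKM of the 13 mitochondrially encoded genes ran from 101222 to 161176 with non-targeting and from 67015 in RUNX1 shRNA replicate 2 to 99028 in replicate 1. Of these genes 6 fell and none rose, MT-ATP6 (-0.33, ended by 7) and MT-ND4L (-0.29, ended by 6) in front. This count moved widely: 4 fell without RUNX1 shRNA replicate 2, 2 without non-targeting replicate 1, 1 without non-targeting replicate 3, 1 with no filter on low values and 3 without the mean-variance trend. With the replicate block it was higher, at 9. The part of length and of the mitochondrial share in the gene-level results was otherwise not tested.

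The libraries carried the markers of their line. Of 12 myeloid leukaemia markers 11 were tested, such as CD33 (62.3 ± 0.708 FPKM with non-targeting shRNA), SPI1 and LYZ, and CSF1R was at 48.2 to 55.6 FPKM. Markers of other cells were mostly low: the test was reached by 3 of 13 markers of megakaryocytes and platelets, 2 of 14 of red cell precursors, 2 of 14 of T and NK cells, 1 of 12 of B cells and 1 of 13 of epithelium and fibroblasts. PF4 of platelets and MS4A1 of B cells were listed at 0 in all 6 libraries, and the highest library values of GATA1, HBB and CD3E were 0.0215, 0.109 and 0.0344 FPKM. The tested T and NK markers NKG7 (-0.39, ended by 2) and NCAM1 (-0.29, ended by 5) fell, where 13.8% of all tested genes did. Their list summed to 20.1 to 21.6 FPKM with non-targeting and 15.5 to 15.7 FPKM with RUNX1 shRNA. Of the 2 tested markers of red cell precursors 1 fell. The integrin ITGA2B (0.45, ended by 6) was the one megakaryocyte marker that rose.

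The knockdown was set beside the BET drugs of the same series, an inhibitor (OTX015) and a cereblon-recruiting degrader built on it (ARV-825), since the series title pairs RUNX1 knockdown with BET protein degradation. Agents, times and tables differed and no library was shared, so the values stand side by side with no test. RUNX1 changed by -0.85 with its shRNA, by -0.75 with ARV-825 (from 61.4 ± 2.09 to 36.2 ± 2.39 FPKM) and by -0.15 with OTX015. Several myeloid regulators changed far more with the drugs: MYC by -3.59 and -1.34 with ARV-825 and OTX015 against -0.31 with the shRNA, and SPI1 by -1.78 and -1.75 against -0.16. NFE2 (-3.04 and -1.51) and BCL2 (-1.85 and -1.80) were lower in all 3 comparisons. Other genes went opposite ways. GATA2 changed by -1.85 with ARV-825 and -1.41 with OTX015 against 0.73 with the shRNA, and C1orf186 by -2.14 and -3.07 against 1.86. VIM was higher with both drugs (0.29 and 0.48) and lower with the shRNA (-1.32). CTSG changed by 0.16 with ARV-825, -0.46 with OTX015 and -1.22 with the shRNA. Of the neutrophil granule list, 5 rose and 4 fell of 12 tested members with ARV-825, where 35.8% of all genes rose and 38.4% fell. With OTX015 none rose and 9 fell, where 36.1% of all genes rose and 33.5% fell. Of 28 replication-dependent histone genes tested with the drugs, 26 rose with ARV-825 and 24 with OTX015, beside these same shares of all genes. The filter took the mean over all drug libraries, treated ones included, which favours a rise among low genes tested. HIST2H2BE changed by 2.38, 3.27 and, with the shRNA, 2.14.

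Over 10556 genes tested in both tables, the drugs changed most genes: in their own fit of 10819 genes, 74.2% were called with ARV-825 (35.8% rose, 38.4% fell) and 69.6% with OTX015 (36.1% rose, 33.5% fell). Of 1463 genes that fell with RUNX1 shRNA, 47.8% also fell with ARV-825, where 39.2% of all 10556 did, and 49.7% fell with OTX015, where 34.2% of all did. Of 1436 genes that rose with RUNX1 shRNA, 37.5% rose with ARV-825 (34.9% of all) and 42.5% with OTX015 (35.4% of all), or 36.1% and 41.6% without the cluster histones. Opposite directions were also common: 29.1% of the genes that fell with RUNX1 shRNA rose with ARV-825 and 24.9% rose with OTX015, and 38.5% of those that rose with RUNX1 shRNA fell with ARV-825, more than rose with it, and 32.1% fell with OTX015. Seen from the drugs, 16.9% of the genes that fell with ARV-825 and 20.2% of those that fell with OTX015 also fell with RUNX1 shRNA, where 13.9% of all 10556 did. For rises these shares were 14.6% and 16.3%, where 13.6% of all did.

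**Figure D5:**
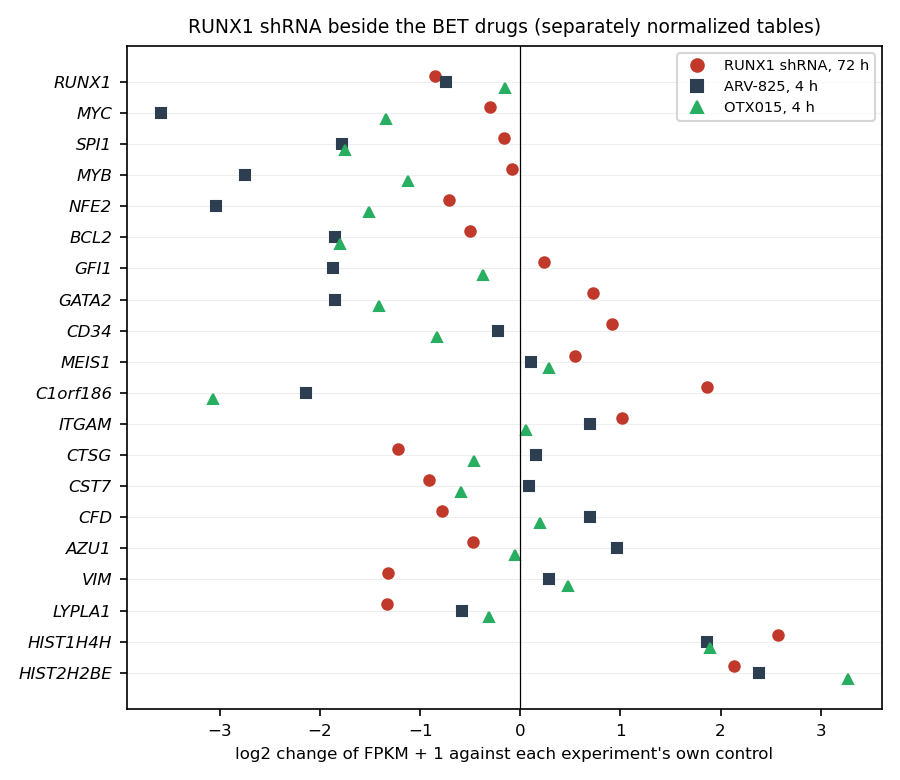
Log2 change of FPKM + 1 of 20 genes with RUNX1 shRNA at 72 h (red circles), ARV-825 at 4 h (dark squares) and OTX015 at 4 h (green triangles), each against the control of its own experiment. MYC and SPI1 lie farther left with the drugs, GATA2, CD34 and C1orf186 lie right of 0 with the shRNA and left of it with the drugs, and HIST1H4H and HIST2H2BE lie right of 0 in all 3.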

How the data were processed

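The 6 shRNA libraries have a table of their own with 19620 entries for protein-coding genes, and the 9 drug libraries have another. The deposited values were read as FPKM that the authors had quantile normalized in each table, though the headers name no unit. Per the submitters' processing notes, Cufflinks 2.0, TopHat2 2.0 and hg19 were used. Values were equal in 18 to 60 tested genes per pair of shRNA libraries. Yet sums ran from 554570 to 651372 FPKM per shRNA library, which quantile normalization of just the listed genes would have made alike. How the values were normalized was not tested. The gene annotation and strand are not given in the sources used here, so overlapping antisense genes cannot be told apart, and depth is unknown. Such values hide a change in the total RNA of a cell. Pseudoautosomal Y copies (16) were dropped, and 19313 of the remaining 19604 IDs matched the gene name table.

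Testing was on log2(FPKM + 1) with limma 3.58.1 in R 4.3.3, two-sided, by lmFit and by eBayes with its trend option, for genes whose mean in the fit reached 1 FPKM, with Benjamini-Hochberg adjustment over all tested genes and a threshold of 0.05. This scale understates changes of genes near or below 1 FPKM. The shRNA libraries and the drug libraries were fitted separately. Called means past that threshold, and rose and fell are used of called genes. The fit was tested on simulated data with 200 changed genes and independent noise per gene, set by the spread of the non-targeting libraries. Such data hold no shifts of whole libraries, so they cannot show how such shifts affect the calls. The series names biologic triplicates but no shared culture or day, so the p-values rest on the spread between libraries alone, which may be technical in part.

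Named were 16 fixed genes, the 12 largest falls and rises among called genes whose groups did not overlap, up to 5 called members of each list and direction, and up to 5 abundant genes changed at least 2-fold per direction. Other members with a count of 1 or few, and genes said to be chosen after their values were seen, fall outside this rule. There were 34 gene lists and 6 marker lists. The comparison, the members and the lists were chosen with earlier results of these data known. Lists were described by counts and medians, with no test of a list. Some genes that the rule takes are not reported here. Alternatives were another pseudocount, other filters, median-ratio rescaling, no trend, a replicate block, leaving out each library and, added after seeing the data, removal of a transcript length trend. Replicate numbers recur across the groups, but the sources used here do not say that same-numbered libraries belong together. They were paired only in the replicate block. Deviations from the group mean correlated at -0.003, 0.0514 and 0.0612 in same-numbered pairs 1, 2 and 3 and at -0.0704 to 0.0222 in the others. Replicate 2 had the highest cluster histone sum of each group (99.9 and 485 FPKM) and the lowest mitochondrial sum (101222 and 67015 FPKM). Whether the numbers mark a shared culture or day was not tested.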

Additional observations from a re-analysis of the deposited data

How the results depend on the processing

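RUNX1 kept its direction and its call, and RUNX3 stayed on its side of the threshold, under all 13 alternatives. The number of called genes was 2987 with a pseudocount of 0.1 FPKM, 2650 at a mean of at least 5 FPKM, 2454 of 16527 with no filter on low values, 3009 after median-ratio rescaling, 2726 without the mean-variance trend, 2972 with the length trend removed and 2585 with the replicate block, against 2988 as reported. The block moved 5 of 80 list counts by over 1.5 times, among them NF-kB and cytokine genes that fell (3 against 6), and ended 20 calls of single genes, and the numbers are not known to pair the libraries. Leaving out each library in turn gave 1997 to 2840 called genes, 1031 to 1404 that rose and 966 to 1436 that fell. Of 238 genes followed one by one 234 were called, 160 of them under every alternative that tested them, and 74 lost the call under at least 1 alternative. CDK6, which was not called, changed by -0.0686 with the length trend removed and by -0.0365 without RUNX1 shRNA replicate 2, the lowest of the changes without one library, which reached 0.124 without RUNX1 shRNA replicate 3, and the cause was not tested. Depth is unknown, so a limit on low genes such as ELANE and PRTN3 cannot be given.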
